A study of Mus musculus with 4 samples.

Results

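The genes described here are 10 imprinted genes with roles in growth: H19, Igf2, Cdkn1c, Meg3, Peg3, Plagl1, Grb10, Igf2r, Mest and Peg10. They were taken by symbol from a table of 24421 genes, and all 10 were found in it. The table holds polyadenylated RNA of 4T07, a murine line from mammary carcinoma (strain Balb/cfC3H), in 2 libraries of genotype control and 2 of genotype Six2 Overexpression. All cells were harvested 48 hours after plating in medium with calf serum. The sources used here do not say how Six2 was introduced, whether the cells are 1 clone, or whether replicates are separate cultures, so p-values measure only the spread between these libraries. Six2 itself reached 0.0285 RPKM in Six2 replicate 1 and was 0 in the other 3 libraries, so the groups are named by their labels only. Values are RPKM, which scales reads to gene length and library size.

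An imprinted gene is expressed mainly from the chromosome inherited from 1 parent, because methylation set in the egg or the sperm marks a control region nearby. Many such genes act on growth, and in broad terms those expressed from the paternal copy promote it and those expressed from the maternal copy restrain it. H19, Cdkn1c, Meg3, Grb10 and Igf2r are mostly expressed from the maternal copy in mouse, and Igf2, Peg3, Plagl1, Mest and Peg10 from the paternal copy. Igf2 encodes the fetal growth factor IGF-II, and Igf2r encodes the receptor that clears IGF-II from the cell surface and carries enzymes to the lysosome. The table does not separate the parental copies.

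The read totals behind the values, recovered from the steps in the RPKM values, were about 43110000 and 41880000 for control replicates 1 and 2 and 49910000 and 81520000 for Six2 replicates 1 and 2. Where a library is listed at 0, up to 3 reads could have been missed, equal for a 1 kb gene to 0.0696 and 0.0716 RPKM in control and 0.0601 and 0.0368 RPKM in Six2 libraries; longer genes have lower limits, and only counting error is covered. Of the markers of the labelled cell type, 5 of 7 reached 1 RPKM, among them Krt8, a keratin of simple epithelium, at 607 to 1059 RPKM, and Vim, the mesenchymal filament vimentin, at 1300.0 to 1553 RPKM. Epcam, an epithelial surface marker, lay between 0.0833 and 0.720 RPKM and was lower in both libraries labelled Six2. Cdh1, which encodes the epithelial adhesion protein E-cadherin, was at 14.6 and 8.403 RPKM in control and 0.186 and 0.103 RPKM in Six2 libraries (log2 difference -3.40, SE 0.273, limma adjusted p = 0.0592). The part of these markers in the differences of Igf2 and H19 given later was not tested. Of 4 endothelial and 5 muscle and fat markers 0 reached 1 RPKM in any library, and of 7 fibroblast and 6 leukocyte markers 1 each did. The fibroblast markers summed to 5.28 to 9.92 RPKM in control and 5.18 to 7.44 RPKM in the libraries labelled Six2, and the leukocyte markers to 7.45 to 12.5 and 5.02 to 9.27 RPKM.

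Most of these genes were silent or nearly silent in 4T07 cells. Meg3, Peg3, Grb10 and Mest were listed at 0 in all 4 libraries, or 4 of the 10, where 31.7% of all genes in the table were. Cdkn1c, Plagl1 and Peg10 were above 0 in 1 library each. Only Igf2r, Igf2 and H19 were above 0 in all 4 libraries, and only Igf2r passed the filter of 1 RPKM in 2 libraries that the test required. By level per length the order was Igf2r, Igf2, H19, then the traces of Cdkn1c, Plagl1 and Peg10. The steps from Igf2r to Igf2 and, in the control libraries, from Igf2 to H19 were wider than the spread over libraries of a group. In the libraries labelled Six2 the lowest Igf2 value, 0.0232 RPKM, and the highest H19 value, 0.0161 RPKM, rested on 4 and 3 reads, and these neighbours in the order cannot be separated at this depth. The plot of the 10 genes by library shows this.

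**Figure D1:**
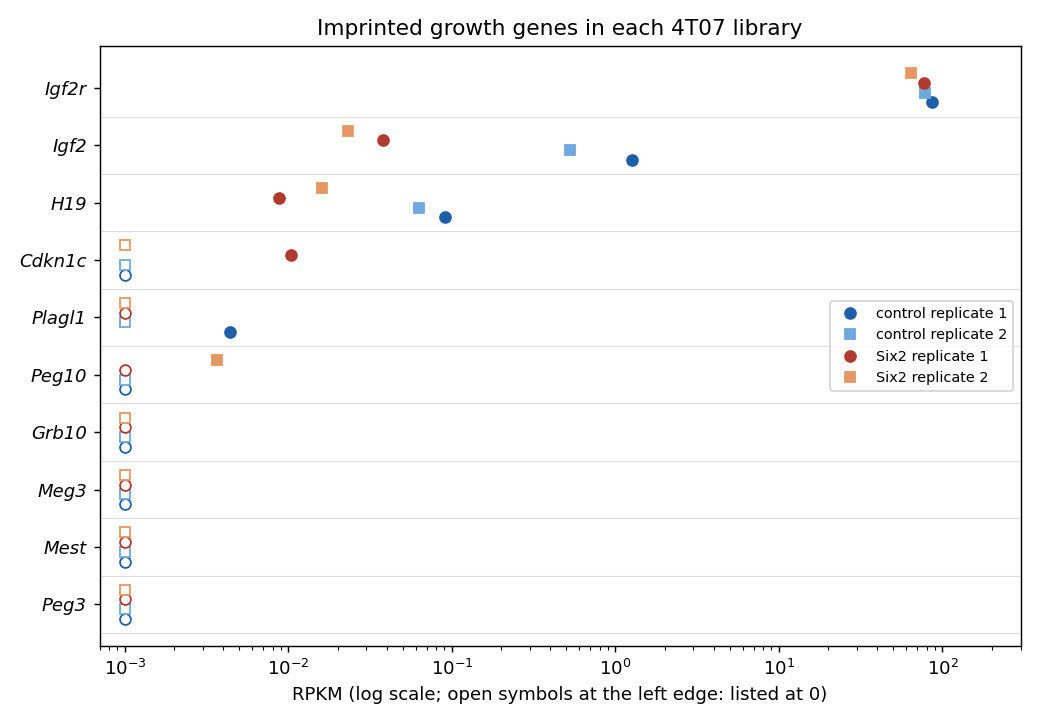
RPKM of each gene in each of the 4 libraries, on a log axis; open symbols at the left edge stand for a value listed at 0. Igf2r lies between 63.8 and 85.9 RPKM, Igf2 and H19 are lower in both libraries labelled Six2 than in both controls, and the other 7 genes are at 0 in at least 3 libraries.

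Sequence is shown for the starts of Igf2, the gene with the widest gap between the groups, and of Igf2r, the only strongly expressed member. RefSeq promoter entries were matched for 7 of the 10 genes. Igf2 has 4 entries there, and the table, which counts per gene, does not say which start was used. In the build GRCm38.p6, from 250 bases before to 50 after each start and on the minus strand, they are chr7:142666767-142667066, chr7:142661222-142661521, chr7:142658755-142659054 and chr7:142657447-142657746 for Igf2 starts 1 to 4, and chr17:12769657-12769956 for Igf2r. Capitals mark CpG dinucleotides, the sites at which DNA is methylated.
Igf2 start 1: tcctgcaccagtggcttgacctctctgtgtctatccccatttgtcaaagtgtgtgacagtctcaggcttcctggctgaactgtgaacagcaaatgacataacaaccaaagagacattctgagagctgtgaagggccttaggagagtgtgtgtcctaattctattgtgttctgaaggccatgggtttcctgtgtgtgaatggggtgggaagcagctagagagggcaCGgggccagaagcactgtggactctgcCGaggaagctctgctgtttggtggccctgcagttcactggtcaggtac
Igf2 start 2: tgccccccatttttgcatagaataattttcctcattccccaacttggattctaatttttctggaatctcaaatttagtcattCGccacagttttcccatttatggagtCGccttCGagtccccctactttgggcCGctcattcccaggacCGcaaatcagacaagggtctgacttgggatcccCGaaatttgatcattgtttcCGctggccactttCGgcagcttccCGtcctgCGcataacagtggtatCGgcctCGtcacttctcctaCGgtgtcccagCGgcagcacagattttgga
Igf2 start 3: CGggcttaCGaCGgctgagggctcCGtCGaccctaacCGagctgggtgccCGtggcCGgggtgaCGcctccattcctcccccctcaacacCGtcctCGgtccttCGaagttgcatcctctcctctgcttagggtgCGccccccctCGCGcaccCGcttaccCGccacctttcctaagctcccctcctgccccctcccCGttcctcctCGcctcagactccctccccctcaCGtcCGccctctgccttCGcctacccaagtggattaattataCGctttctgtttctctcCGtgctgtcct
Igf2 start 4: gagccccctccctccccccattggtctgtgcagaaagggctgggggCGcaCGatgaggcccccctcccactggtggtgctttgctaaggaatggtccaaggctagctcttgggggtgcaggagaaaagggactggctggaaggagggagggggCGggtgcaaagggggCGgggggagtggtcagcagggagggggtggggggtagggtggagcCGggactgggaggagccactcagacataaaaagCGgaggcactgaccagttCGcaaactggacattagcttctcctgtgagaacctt
Igf2r: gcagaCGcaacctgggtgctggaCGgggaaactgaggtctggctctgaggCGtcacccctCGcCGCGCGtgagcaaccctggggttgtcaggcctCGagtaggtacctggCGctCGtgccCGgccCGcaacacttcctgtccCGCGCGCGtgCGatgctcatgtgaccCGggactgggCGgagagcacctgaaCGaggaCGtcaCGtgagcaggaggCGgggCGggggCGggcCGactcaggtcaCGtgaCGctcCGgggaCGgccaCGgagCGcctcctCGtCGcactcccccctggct

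The Igf2r window held 34 CpG dinucleotides, against a median of 7 over 32851 promoter windows of the same length, and the Igf2 windows held 2, 14, 24 and 7 from start 1 to start 4. Methylation was not measured here. Motifs were searched on both strands. The TATA box TATAAA, which 13.6% of all windows hold, and the MEF3 motif TCAGGTTTC, bound by the protein family of Six2 and held by 0.429%, had no match in any of the 5 windows. That says only that these letters are not there.

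Igf2 was detected in control cells and nearly absent from the libraries labelled Six2. The protein-coding gene Igf2 (ENSMUSG00000048583.16) lies on the minus strand of chromosome 7 from 142650766 to 142666816 in GRCm38. It was at 1.27 RPKM in control replicate 1, 0.530 in control replicate 2, 0.0378 in Six2 replicate 1 and 0.0232 in Six2 replicate 2. Both libraries labelled Six2 lay below both controls, and the controls differed from each other. The values correspond to 116, 47, 4 and 4 reads, the smallest whole numbers that fit the steps. The group means were 0.900 ± 0.524 and 0.0305 ± 0.0104 RPKM (SD, n = 2 per group), 29.5-fold apart. Summed over libraries, the 163 control reads and 8 reads labelled Six2 give a ratio, scaled to library totals, of 31.5, with an exact binomial 95% interval of 15.6 to 74.2 that covers counting error only.

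The spread between control libraries was itself wider than counting error. Control replicate 1 held 2.40 times the Igf2 reads, scaled to library totals, of control replicate 2 (95% interval 1.69 to 3.44). The nearest libraries of the 2 groups, control replicate 2 and Six2 replicate 1, differed 14.0-fold (95% interval 5.12 to 53.5). Among 2365 genes with a control mean of 0.3 to 3 RPKM, 2.16% were at least 10-fold lower by mean RPKM in the libraries labelled Six2. Of all 16679 genes above 0 in any library, 24.5% had both libraries labelled Six2 below both controls.

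Igf2 missed the filter, so it has no value in the limma test over 10654 genes. In the 3 alternatives with a lower or no filter that did fit it, it did not pass, with limma adjusted p between 0.109 and 0.247. Where 0.1 RPKM on average sufficed, limma called 0.0721% of genes lower. The other 2 fits, limma without a filter and voom on recovered reads at 0.1 RPKM, called 0 genes in either direction, so no gene passed there. On log2(RPKM + 1), a scale that shrinks differences of low genes, Igf2 differed by -0.85, and by -0.57 without control replicate 1 and -1.14 without control replicate 2. With 2 libraries against 2, an exact two-sided permutation test of a single gene cannot go below p = 0.333. Igf2os, an antisense RNA that overlaps Igf2, had 3 and 7 reads in control and 0 and 1 reads in Six2 libraries. The sources used here do not say whether reads were counted by strand, so reads of Igf2 and Igf2os may not be separated.

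H19, the noncoding RNA that shares enhancers and a control region with Igf2, was low throughout and lower still in the libraries labelled Six2. H19 (ENSMUSG00000000031.16, chromosome 7, 142575529 to 142578143, minus strand, lincRNA) stood at 0.0912 and 0.0626 RPKM in control cells and 0.00876 and 0.0161 RPKM in the libraries labelled Six2. These are 9, 6, 1 and 3 reads, and the groups do not overlap. The ratio of the summed reads, scaled to library totals, was 5.80, with an exact binomial 95% interval of 1.85 to 24.0 that covers counting error only. The 2 control libraries differed by less than counting error allows (ratio 1.46, 95% interval 0.463 to 4.98). At these counts the size of the difference is poorly set. H19 passed neither the filter nor the one fit that included it (limma without a filter, adjusted p = 0.21). That fit called 0 genes in either direction. The tables' rows for Mir675, which lies within H19, and Mir483, within Igf2, were at 0 in all 4 libraries; a library of polyadenylated RNA is not a measure of mature miRNAs.

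In bulk samples such as these, fewer cells that express a gene and less RNA per cell cannot be told apart, and a level of 1 RPKM may be a few cells of many.

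Most genes detected around Igf2 and H19 had lower values in the libraries labelled Six2. Within 500 kb of the Igf2 start, 14 genes besides Igf2, H19 and Igf2os were above 0 in at least 1 library. Of these 10, or 71.4%, had both libraries labelled Six2 below both controls, against 24.5% of all genes above 0, while 1 was above, against 18.4%, and 3 overlapped. Of the 8 that passed the filter, 6 lay below and 1 above, against 25.5% and 21.9% of tested genes. In the same window around Igf2r, on chromosome 17, 5 of 8 tested genes lay below and 0 above. Around Mest, on chromosome 6, 2 of 7 lay below and 1 above, and around Plagl1, on chromosome 10, 1 of 6 below and 1 above. Tssc4 counts as below at a log2 difference of only -0.07, and some of the genes under the filter had a few reads. The window was looked at after the values of Igf2 and H19 were known, and neighbours are not independent of each other. Lsp1, which encodes a leukocyte actin-binding protein, stood at 15.9 and 11.0 RPKM in control cells and 4.97 and 4.86 RPKM in the libraries labelled Six2. Cd81, which encodes a tetraspanin, was at 145 and 120.3 RPKM against 88.9 and 80.6 RPKM. Mrpl23, a mitochondrial ribosomal protein gene next to H19, went the other way, at 53.4 and 49.3 RPKM in control cells and 61.0 and 62.6 RPKM in the libraries labelled Six2.

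None of the 8 tested neighbours within 500 kb passed limma over all genes without a replicate block. The smallest adjusted p of those named was 0.117, for Lsp1 (log2 difference -1.26, SE 0.195). Cd81 differed by -0.64 (SE 0.134, adjusted p = 0.158) and Mrpl23 by 0.26 (SE 0.0952, adjusted p = 0.285). With the replicate number as a block, whose meaning the labels do not give, Lsp1 and Cd81 were called lower (limma adjusted p = 0.00018 for each). Mrpl23 was then called higher (limma adjusted p = 0.00785). That fit called 2506 genes lower and 2133 higher among the 10654 tested. Of the silent genes nearby, Ins2 and Th, which lie between Igf2 and Ascl2, were listed at 0 in all 4 libraries. Ascl2, a transcription factor gene of the placenta, had 2, 3, 1 and 0 reads. Over 2000 kb to either side the median difference of 58 tested genes was -0.09, and over chromosome 7 as a whole it was -0.04.

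**Figure D2:**
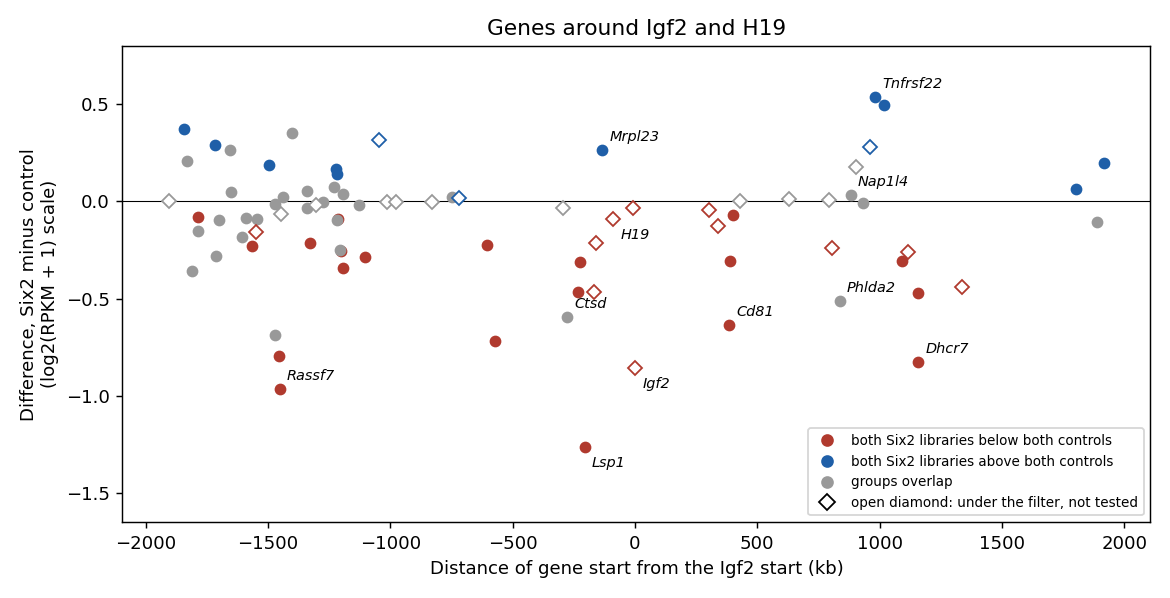
Difference between the groups on the log2(RPKM + 1) scale for genes above 0 within 2000 kb of the Igf2 start, by distance in kb; red and blue mark genes whose 4 libraries lie apart by group, and open diamonds are genes under the filter. Most genes within 500 kb of Igf2 lie below 0, Lsp1 at -1.26 and Igf2 at -0.85, and Mrpl23 lies above 0 at 0.26.

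Cdkn1c lies in the next imprinted domain of the same chromosome (ENSMUSG00000037664.13, 143458339 to 143461050, minus strand) and encodes an inhibitor of cyclin-dependent kinases. It was listed at 0 in both controls and Six2 replicate 2, and at 0.0103 RPKM in Six2 replicate 1, which is 1 read or a small multiple of it. Kcnq1ot1, the long noncoding RNA that silences this domain on the paternal copy, stood at 0.0614 and 0.0698 RPKM in control cells and 0.0644 and 0.0826 RPKM in the libraries labelled Six2. These groups overlap. Phlda2, another gene of the domain and a brake on placental growth, was expressed, at 4.88 and 9.78 RPKM in control cells and 3.40 and 6.09 RPKM in the libraries labelled Six2. Its log2 difference of -0.51 (SE 0.391) did not pass (limma adjusted p = 0.578), and it lay between -0.95 without control replicate 1 and -0.074 without control replicate 2. Within each replicate number the library labelled Six2 was the lower one. With that number as a block the SE was 0.0771 (limma adjusted p = 0.00185), but the labels do not say what the number marks. Cdkn1c was thus at the limit of detection, and Phlda2, 42.1 kb away, had 125 to 366 reads a library.

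The related inhibitor genes Cdkn1a and Cdkn1b were expressed in every library. Cdkn1a stood at 37.1 and 28.6 RPKM in control cells and 84.4 and 52.6 RPKM in the libraries labelled Six2 (log2 difference 1.01, SE 0.273, limma adjusted p = 0.203). Cdkn1b was at 43.0 and 38.7 against 35.3 and 34.0 RPKM (adjusted p = 0.355). Of the 13 inhibitors, kinases and cyclins listed as partners of Cdkn1c, all 13 were tested and 0 passed with limma or with voom on recovered reads, 3 being higher and 0 lower at an unadjusted p under 0.05, where 7.36% of all tested genes were higher and 9.66% lower. Their median difference was 0.18, beside -0.01 over all tested genes. Both libraries labelled Six2 lay above both controls for 4 of the 13 (30.8%) and below for 1 (7.69%), against 21.9% and 25.5% of tested genes. Ccnd1, the cyclin of the G1 phase, was at 626 ± 48.4 and 631 ± 60.3 RPKM, and its kinase gene Cdk4 at 357 ± 13.5 and 437 ± 3.57 RPKM (adjusted p = 0.979 and 0.224).

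Meg3, Peg3, Grb10, Mest, Plagl1 and Peg10 gave too few reads for a comparison. Meg3 (chromosome 12, 109541001 to 109571726) is the maternally expressed noncoding RNA of the Dlk1 to Dio3 domain. Its 4 libraries were at 0, as were those of Dlk1, which encodes a Notch-like growth regulator, and Rian, a neighbouring noncoding RNA, had 1 read in control replicate 1. Further along the same domain Mirg, a miRNA host RNA, was detected in every library, with 13, 3, 17 and 17 reads and overlapping groups. None of the 69 genes of the table within 500 kb of the Meg3 start reached the filter of the test.

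Peg3 (chromosome 7, 6703892 to 6730431), a zinc finger gene, was at 0 in all 4 libraries, and Usp29, which shares its promoter region, had 1 read or a small multiple in Six2 replicate 2. Peg10 (chromosome 6, 4747306 to 4760517), a gene derived from a retrotransposon and needed in the placenta, was at 0.00368 RPKM in Six2 replicate 2 and 0 elsewhere, and Sgce, whose start lies beside it, was at 0 in all 4. Casd1 was the nearest tested gene to Peg10 and lay between 12.4 and 13.4 RPKM. Ppp1r9a, the other tested gene within 500 kb, stood at 0.661 and 0.778 RPKM in control cells and was higher in both libraries labelled Six2. There it was at 1.095 and 1.177 RPKM (log2 difference 0.31, limma adjusted p = 0.335). Farther away in the same imprinted region, Pon2, a paraoxonase gene, stood at 14.3 and 14.9 RPKM in control cells and 6.61 and 7.94 RPKM in the libraries labelled Six2 (log2 difference -0.92, SE 0.125, limma adjusted p = 0.102).

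Mest (chromosome 6, 30723547 to 30748465), a gene of the hydrolase family, was at 0 in all 4 libraries. Copg2, a coat protein gene that overlaps its far end on the other strand, stood at 11.9 and 8.67 RPKM in control cells and 8.79 and 7.22 RPKM in the libraries labelled Six2. Those groups overlap. Grb10 (chromosome 11, 11930508 to 12038683), an adaptor that dampens insulin and IGF receptor signalling, was likewise at 0 in all 4. Its imprinted neighbours Ddc and Cobl had 1 read or a small multiple in 1 library each. Plagl1 (chromosome 10, 13060504 to 13131694), which encodes a zinc finger factor that restrains growth, was at 0.00441 RPKM in control replicate 1 and 0 in the other 3 libraries.

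Igf2r was the 1 member with high expression, and it was slightly lower in the libraries labelled Six2 without passing the test. Igf2r (ENSMUSG00000023830.14, chromosome 17, 12682406 to 12769664, minus strand) was at 85.9 and 78.6 RPKM in control replicates 1 and 2 and at 76.9 and 63.8 RPKM in Six2 replicates 1 and 2, on 29406 to 46459 reads a library. The groups do not overlap, but the gap between control replicate 2 and Six2 replicate 1 was smaller than the spread within either group. It ranked 1020 of the 24421 genes by mean RPKM. The group means were 82.3 ± 5.13 and 70.3 ± 9.22 RPKM (SD, n = 2 per group), a ratio of 0.855. The log2 difference was -0.23 (SE 0.131, limma adjusted p = 0.459).

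So of the 10 genes 1 was tested and 0 were called, where 0.0282% of tested genes were called higher and 0.0845% lower. With the replicate number as a block, whose meaning the labels do not give, Igf2r was called lower (limma adjusted p = 0.013). It was then 1 of 2506 genes called lower among the 10654 tested. Of the tested genes 25.5% had both libraries labelled Six2 below both controls, as Igf2r did, and 21.9% had both above. The tested genes of chromosome 17 had a median difference of -0.21. With chromosome medians removed, Igf2r differed by -0.02, and without Six2 replicate 2 by -0.10.

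Airn, the noncoding RNA that starts within Igf2r on the other strand and silences its paternal copy in many tissues, stood at 2.87 and 2.66 RPKM in control cells and 2.31 and 2.21 RPKM in the libraries labelled Six2. Its log2 difference of -0.21 (SE 0.116, limma adjusted p = 0.448) turned to 0.00023 with chromosome medians removed. Without a stated strand setting, reads of Airn and of unspliced Igf2r cannot be told apart. M6pr, which encodes the other mannose phosphate receptor, stood at 74.0 and 81.3 RPKM in control cells and 69.0 and 72.6 RPKM in the libraries labelled Six2 (adjusted p = 0.578), so the RNAs of both receptors were at like levels per length.

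Among the receptors that IGF-II signals through, Igf1r stood at 17.1 and 14.5 RPKM in control cells and 12.4 and 10.5 RPKM in the libraries labelled Six2. Its log2 difference was -0.43 (SE 0.142, limma adjusted p = 0.254), and the groups do not overlap. Insr, the insulin receptor gene, was at 8.38 and 8.45 RPKM against 6.93 and 7.06 RPKM (adjusted p = 0.335). The other ligand gene, Igf1, had 5 and 1 reads in control cells and 0 in both libraries labelled Six2. Receptor RNAs were therefore present in all libraries, whereas both ligand RNAs lay near or under 1 RPKM.

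Igfbp7, which encodes a secreted IGF-binding protein, had the largest log2 difference of the 16 tested IGF axis genes, a list without Igf2, and is named after its values were seen. It was at 59.5 and 24.9 RPKM in control replicates 1 and 2 and at 2.197 and 1.18 RPKM in Six2 replicates 1 and 2. Control replicate 1 is above control replicate 2 here, as for Igf2. The log2 difference of -3.91 (SE 0.464) did not pass (limma adjusted p = 0.0937). It was -4.52 without control replicate 2 and -3.30 without control replicate 1. The adjusted p over its alternatives with all 4 libraries and no block lay between 0.0871 and 0.145. With the replicate number as a block the SE was 0.138 and the limma adjusted p 7.1e-06, but the labels do not say what that number marks. Stc1, which encodes a hormone that inhibits the protease PAPP-A, stood at 7.91 and 5.26 RPKM in control cells and 2.63 and 1.46 RPKM in the libraries labelled Six2 (adjusted p = 0.159). Igfbp4, the most abundant gene of the list, was at 684 ± 61.2 and 632 ± 64.3 RPKM (adjusted p = 0.711), and the kinase gene Akt1 at 201 ± 9.52 and 289 ± 11.3 RPKM (adjusted p = 0.141; its log2 difference of 0.52 became 0.28 with chromosome medians removed).

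The 3 Igf2bp genes encode proteins that bind Igf2 messenger RNA. Igf2bp1 stood at 0.446 and 0.698 RPKM in control cells and 0.0191 and 0.101 RPKM in the libraries labelled Six2, on 161, 245, 8 and 69 reads, so it too was under the filter and lower in both. Igf2bp2 was at 71.6 and 72.1 RPKM against 55.8 and 57.8 RPKM (log2 difference -0.33, SE 0.0874, limma adjusted p = 0.198; -0.12 with chromosome medians removed), and Igf2bp3 had 1, 0, 1 and 0 reads. Of the 28 IGF axis genes listed, 16 were tested and 0 passed with limma or with voom on recovered reads, 1 being higher and 4 lower at an unadjusted p under 0.05, against 7.36% and 9.66% of all tested genes. Their median difference was -0.15, beside -0.01 over all tested genes, and 9 of the 16 had both libraries labelled Six2 below both controls and 3 had both above, against 25.5% and 21.9% of tested genes.

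**Figure D3:**
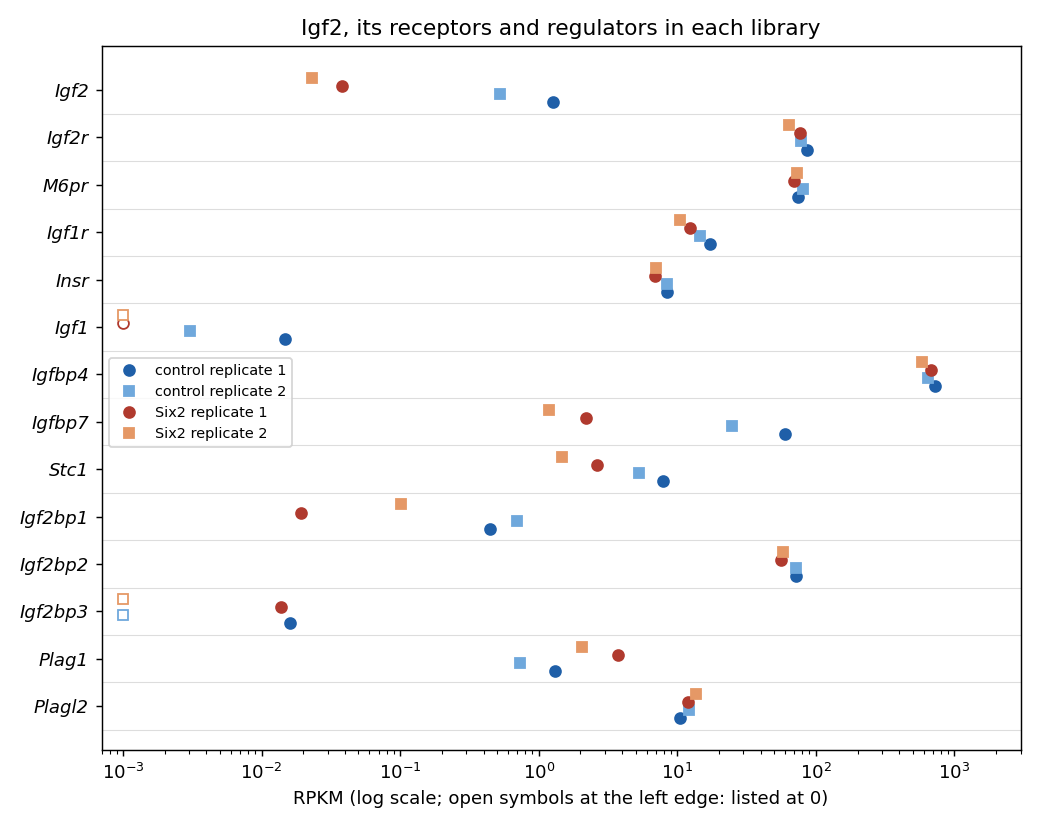
RPKM on a log axis, in each of the 4 libraries, of Igf2, its receptors, binding proteins, messenger RNA binding proteins and PLAG family genes; open symbols at the left edge stand for a value listed at 0. Igf2, Igfbp7, Stc1 and Igf2bp1 are lower in both libraries labelled Six2, the 4 libraries lie closer together for the receptors, and Plag1 is higher in both.

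Of the PLAG family, whose members bind promoters of Igf2 and other imprinted genes, Plagl1 was above 0 in 1 library, as given earlier, and its relatives in all 4. Plag1 stood at 1.30 and 0.737 RPKM in control cells and 3.74 and 2.07 RPKM in the libraries labelled Six2 (log2 difference 0.93, SE 0.279, limma adjusted p = 0.229). Plagl2 was at 11.3 ± 1.19 and 12.7 ± 1.18 RPKM (adjusted p = 0.597). Zfp57, which encodes a zinc finger protein that keeps methylation at imprinted control regions, stood at 3.61 and 4.06 RPKM in control cells and 2.16 and 2.50 RPKM in the libraries labelled Six2 (adjusted p = 0.176). Its cofactor gene Trim28 was at 168 ± 19.5 and 171 ± 15.0 RPKM and Uhrf1, which guides the maintenance methylase, at 101 ± 14.8 and 104 ± 15.2 RPKM (adjusted p = 0.936 and 0.939). Of the 24 genes listed for imprint control and the PLAG family 19 were tested and 0 passed with limma or voom. At an unadjusted limma p under 0.05, 3 were higher and 3 lower (7.36% and 9.66% of all tested genes), with a median difference of 0.15. Both libraries labelled Six2 lay above both controls for 9 of the 19 (47.4%) and below for 4 (21.1%), against 21.9% and 25.5% of tested genes.

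Among other imprinted genes, the share at 0 was near that of all genes. Of 64 listed, 63 were in the table, 18 of these (28.6%) were at 0 in all 4 libraries, where 31.7% of the whole table was, and 25 were tested. None of the 25 passed with limma or with voom, 0 being higher and 5 lower at an unadjusted p under 0.05, beside 7.36% and 9.66% of all tested genes. Their median difference was -0.13, beside -0.01 over all tested genes, and 11 (44.0%) had both libraries labelled Six2 below both controls and 3 (12.0%) both above, against 25.5% and 21.9% of tested genes. Listed genes that lie close together, such as Pon2 and Pon3, are not independent of each other. Cd81 and Tssc4 were also counted in the window around Igf2. The most abundant were Axl, a receptor tyrosine kinase gene, at 353 ± 13.2 and 341 ± 8.59 RPKM, and Gnas, which encodes a G protein subunit, at 161 ± 13.4 and 147 ± 11.7 RPKM (adjusted p = 0.814 and 0.639). In the Prader-Willi region Snrpn, Ndn and Magel2 were at 0 in all 4 libraries, whereas Mkrn3 had 17, 13, 20 and 60 reads. Scaled to depth, Mkrn3 was at 0.155 and 0.122 RPKM in control and 0.157 and 0.289 RPKM in Six2 libraries. It was under the filter, and both libraries labelled Six2 lay above both controls.

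**Figure D4:**
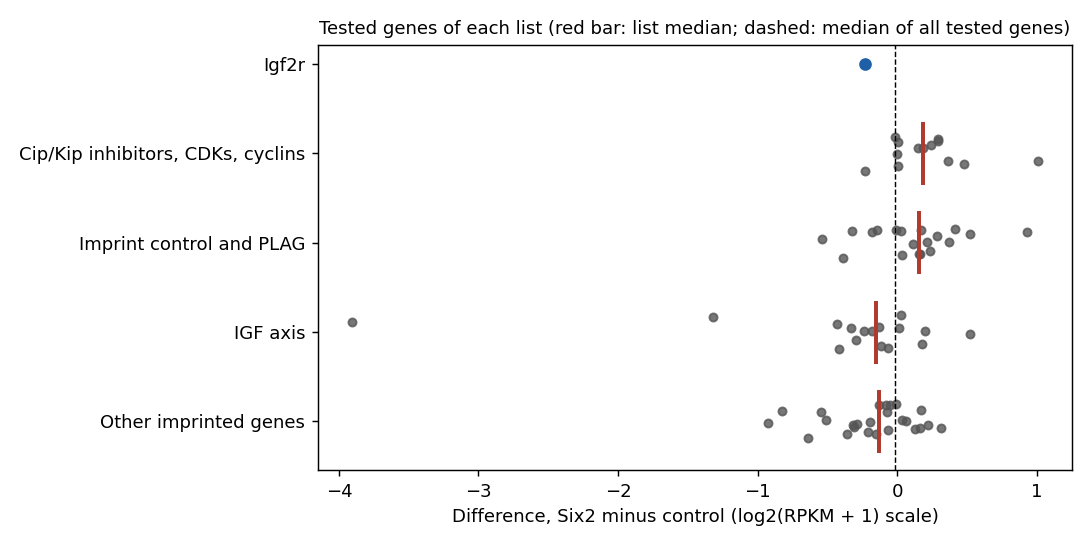
Difference between the groups on the log2(RPKM + 1) scale for the tested genes of each list, with Igf2r on its own row; red bars are list medians and the dashed line is the median of all tested genes, -0.01. The medians are -0.13 and -0.15 for other imprinted genes and the IGF axis and 0.15 and 0.18 for imprint control and Cip/Kip partners, and Igfbp7 is the point at -3.91.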

How the data were processed

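Polyadenylated RNA was sequenced from 4T07 cells in 2 control and 2 Six2 libraries, grouped by their titles. The labels name a stranded Illumina kit. Software in the submitters' processing notes is HTSeq 0.8.0, Picard 2.9.4, TopHat2 2.1.1, SAMtools 1.5, Bowtie2, FastQC 0.11.5 and bcl2fastq 1.8.4; the builds named are GRCm38 and mm10. The sources used here give neither annotation nor strand setting. The authors deposited RPKM values, so the main test was not a count test. As an alternative, voom was run on reads recovered from these values.

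Reads were recovered from the steps in the RPKM values. Whole numbers (within 0.003) came out for 14443 of the 14459 genes above 0 in at least 3 libraries. A factor common to reads and gene length cannot be seen, so read numbers may be understated, above all where 1 library is above 0. The test was limma 3.58.1 (R 4.3.3) on log2(RPKM + 1) with a trend on mean expression, two-sided, over 10654 genes with 2 or more libraries reaching 1 RPKM; p-values were Benjamini-Hochberg adjusted and called at 0.05. It was run on simulated reads with known changes. These were placed in well expressed genes and without an effect shared by replicate number, so the run does not cover genes as low as Igf2. The members and lists were chosen with earlier results of these data known. Named were the 10 members, 16 neighbours and partners, and, as no list had a called gene, the 2 most abundant tested genes of each list; Six2 was named as the labelled gene. Other names, the Igf2 window and the promoter motifs were chosen after values or sequences were seen. Positions come from GENCODE M21 (GRCm38), matched for 96.3% of tested genes, and promoters from RefSeq (GRCm38.p6).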

Additional observations from a re-analysis of the deposited data

How the results depend on the processing

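Across all genes, 3 were called higher and 9 lower. Without a filter on low values, and with voom on recovered reads and a filter of a mean of 0.1 RPKM (added after the data were seen), 0 and 0 were called. Leaving out 1 library gave 2 to 18 higher and 9 to 50 lower; without Six2 replicate 2 the counts were 18 and 50, without control replicate 2 they were 6 and 25, and without Six2 replicate 1 the lower count was 31. Among the IGF axis genes the lower calls were 0 to 1 when 1 library was left out. The labels share replicate numbers 1 and 2 but do not say what a number marks; across genes the difference between control replicates correlated with that between Six2 replicates at r = 0.818. With the replicate number as a block, 2133 genes were called higher and 2506 lower, among them 1 member lower (Igf2r, adjusted p = 0.013 with limma), 2 higher and 10 lower of the other imprinted genes, 2 and 8 of the IGF axis, 8 and 3 of imprint control and the PLAG family, and 8 and 1 of the Cip/Kip partners. Directions turned for Airn (0.00023) and Casd1 (0.078) with chromosome medians removed, and for Casd1 with median-of-ratios scaling (0.0076). Leaving out 1 library turned Casd1 (-0.058 to 0.037), Atp10a (-0.63 to 0.47), Ccnd1 (-0.088 to 0.106), Trim28 (-0.088 to 0.148) and Uhrf1 (-0.11 to 0.186). The cause was not tested. With a pseudocount of 0.1, Igf2 differed by -2.83 and H19 by -0.65. Igf2 and H19 rest on 1 to 116 reads a library, and the 7 other low members had too few reads for a comparison.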

Other observations

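Atp10a, which encodes a lipid flippase of the Prader-Willi region, was at 6.55 and 5.77 RPKM in replicate 1 of control and Six2 and at 13.6 RPKM in replicate 2 of each. Its difference between the groups was -0.08 (SE 0.503, limma adjusted p = 0.957). Phlda2 was likewise higher in replicate 2 of both groups. The labels do not say what the replicate number stands for.

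Peg13, a noncoding RNA of an imprinted brain domain, had 6.86 and 6.96 RPKM in control and 4.15 and 4.74 RPKM in Six2 libraries (log2 difference -0.54, SE 0.114, limma adjusted p = 0.159). Dhcr7, at the far end of the Cdkn1c domain and an enzyme of cholesterol synthesis, was at 18.9 and 14.2 RPKM against 8.86 and 8.76 RPKM (adjusted p = 0.145). Both were named after their values were seen.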
